A study of Oryza sativa Indica Group with 45 samples.

Results

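The genes described here encode enzymes and small proteins that handle reactive oxygen and thiols in rice. They were chosen by name, as genes whose RefSeq symbol or synonym starts with a superoxide dismutase, ascorbate peroxidase, glutaredoxin, thioredoxin or glutathione S-transferase prefix and continues with a number or ends there. The rule matched 57 genes. The annotation of the array pairs 46 of them with a probe set, out of 17905 genes with a probe set in all, and the other 11 were not analysed here. The 46 comprise 3 superoxide dismutases, 7 ascorbate peroxidases, 18 glutaredoxins (7 named GRXC and 11 named GRXS), 11 thioredoxins, 6 glutathione S-transferases and SDG723. SDG723 matches through its synonym TRX1 alone and encodes a trithorax-like histone methyltransferase, so it is no thioredoxin and is kept only as a match to the rule. Names for catalases, glutathione peroxidases, iron superoxide dismutases and theta-class transferases were part of the rule and matched 0 genes.

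Affymetrix Rice Genome Arrays measured transcript levels in the indica hybrid MRP5401 and in its parents, the female PMS80 (the B parent below) and the male PR319 (the R parent). Young leaves and roots were taken at 14 days of age, mature leaves and roots at 40 to 60 days, and flag leaves at 90 days. Each of the 15 groups of tissue, age and genotype held 3 arrays called biological replicates. The labels give no treatment, and name hydroponic culture at 28 °C for every group. The labels state neither how many plants were pooled for an array nor the time of harvest.

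Superoxide dismutases turn superoxide into hydrogen peroxide, and ascorbate peroxidases reduce that peroxide to water with ascorbate, which glutathione helps to regenerate. Glutaredoxins and thioredoxins reduce disulfide bonds in other proteins, the former with electrons from glutathione. In chloroplasts, thioredoxins of the f and m types pass electrons from the photosynthetic chain to enzymes of carbon fixation. Glutathione S-transferases attach glutathione to reactive compounds, herbicides and plant metabolites. Classes of the transferases are read here from gene names alone.

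Levels are log2 intensities, given per array or as the lowest, median and highest array of a tissue. Differences between groups are log2 differences, with the standard error of the limma fit after the ± sign. "Rose", "fell" and "changed" are kept for genes with a Benjamini-Hochberg adjusted p under 0.05, over the 24130 probe sets tested. Group means below 5 are near background. Where one of them is the lower side of a difference it was raised to 5, which turns the difference into a bound ("at least"), and no order is given among means below 5. The counts follow the test alone, so that they hold calls with all means below 5. There are 2 such calls between the parents in young leaf, 1 each in young root, mature leaf and flag leaf and 3 in mature root, 1 for the hybrid in young leaf, 1 each for leaf against root at the 2 ages, and 3 for mature against young root. The mid-parent of a gene is halfway between the log2 means of its parents. Of the 46 genes, 45 reached a mean of 5 in some group and were tested. The glutaredoxin GRXS3 did not, with arrays between 2.64 and 4.91. In 33 genes all 15 group means were 5 or more. RNA came from whole organs, so that fewer cells of a type and less RNA per cell cannot be told apart.

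Array medians, on the linear scale before log2 was taken, lay between 6.72 and 7.90, and precision is limited by the 3 arrays of a group. The other signals in this paragraph are in log2. The 3 young leaf arrays of the R parent stood apart from the other young leaves, with medians of 7.36 to 7.90 against 6.77 to 7.17, and had spike-in signals of 12.3 to 13.1 against 10.6 to 11.1 in the hybrid. Young root array 1 of the R parent also stood apart, with a median of 7.41 against 6.78 and 6.81 in its replicates, a 3' index (the 3' minus 5' signal of control genes, which reads RNA quality) of 2.95 against 2.10 and 2.21, and an array weight of 0.30. The tissue labels were checked against markers. Of 9 leaf markers, 8 had means of 5 or more in every leaf group (RBCS1 did not), 7 or 8 in the young root groups and 0 in the mature root groups. Of 8 root markers, 5 or 6 had means of 5 or more in the young roots, 5 to 7 in the mature roots and 1 to 3 in the leaves. The young roots thus held leaf-type transcripts that were near background in the mature roots.

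**Figure D1:**
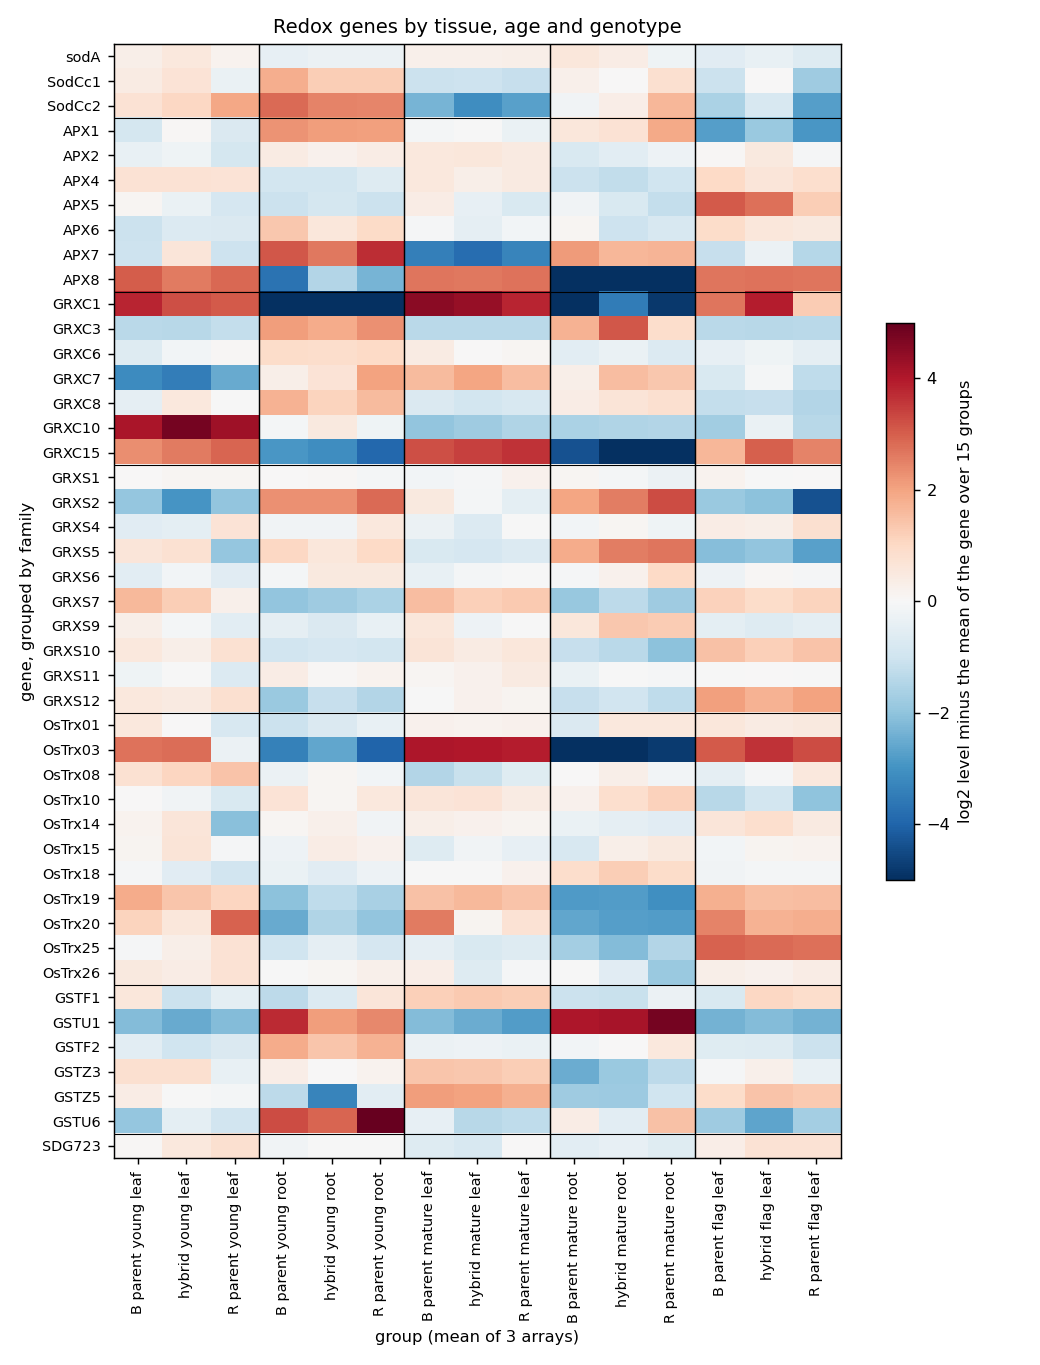
The heat map shows each of the 45 tested genes (rows, by family) in 15 groups (columns, mean of 3 arrays), as the log2 level minus the mean of that gene over the groups, on a scale from -5 to 5. GRXC1, GRXC15, APX8 and OsTrx03 are high in leaves and low in roots, GSTU1 and APX7 the reverse.

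The first question the design allows is where and at what age each gene was transcribed. Leaves and roots differed in most of these genes, as they did in most genes on the array. In young plants 20 of the 45 were higher in leaf and 19 lower, which is 44.4% and 42.2%, against 28.1% and 53.2% of all probe sets tested. In mature plants 22 were higher and 17 lower, 48.9% and 37.8%, against 35.2% and 51.3% of all probe sets. Quantile normalization moved the median of all probe sets from -0.41 to -0.09 in the young comparison and from -0.35 to -0.17 in the mature one. The counts for these genes then were 23 and 19, and 23 and 17.

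Among the superoxide dismutases, SodCc1 and SodCc2, the cytosolic copper and zinc enzymes, were lower in leaf than in root at both ages. SodCc2 ranged from 5.78 through a median of 6.61 to 7.33 in mature leaves and from 8.46 through 9.62 to 11.38 in mature roots, with no overlap. It fell by 3.31 ± 0.20 in leaf against root (limma, adjusted p = 3.82e-17). The manganese enzyme of mitochondria, sodA, was higher in young leaf than young root, and its arrays overlapped between mature leaf and root (12.19 to 12.35 against 11.74 to 12.74).

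The ascorbate peroxidases split by gene. APX8, the peroxidase bound to the thylakoid membrane, ranged from 13.22 through 13.50 to 13.67 in mature leaves and from 4.59 through 5.11 to 5.85 in mature roots. The difference was 8.38 ± 0.14 (limma, adjusted p = 1.6e-33), and 5.33 ± 0.14 between young leaf and young root (adjusted p = 5.03e-27). APX7, the peroxidase of the chloroplast stroma, went the other way at both ages. Its arrays lay between 5.53 and 6.66 in mature leaves and around a median of 11.41, none under 11.18, in mature roots, a fall of 5.34 ± 0.20 (adjusted p = 3.54e-23) or 40.5-fold. In young plants APX7 was lower in leaf by a difference of -3.63 ± 0.20 (adjusted p = 6.23e-18). Both enzymes are known from chloroplasts, and their transcripts lay on opposite sides of the leaf and root comparison.

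Glutaredoxins gave some of the widest differences. GRXC1 ranged from 12.54 through 13.15 to 13.38 in mature leaves and from 3.27 through 3.95 to 5.74 in mature roots, at least 7.93 higher in leaf (limma, adjusted p = 9.11e-30). The young leaf exceeded the young root by at least 7.15 (adjusted p = 2.3e-29). GRXC15 was higher in leaf by at least 5.69 in young and at least 6.65 in mature plants (adjusted p = 4.68e-22 and 3.4e-27). GRXC10 was at its highest in young leaves, with arrays from 8.66 to 10.24 there, from 3.91 to 7.44 in young roots and from 2.87 to 3.97 in mature leaves. On the root side, GRXS2 was at least 4.74 lower in young leaf than in young root (adjusted p = 2.56e-20). GRXS5 fell by 3.12 ± 0.13 in mature leaf against mature root (adjusted p = 1.76e-21).

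Of the thioredoxins, 7 were higher in leaf and 2 lower in young plants, and 6 higher and 3 lower in mature ones. OsTrx03, thioredoxin f, ranged from 14.77 through 14.95 to 15.08 in mature leaves and from 4.22 through 5.07 to 6.67 in mature roots, at least 9.49 higher in leaf (limma, adjusted p = 2.02e-34). The young difference was 5.07 ± 0.16 (adjusted p = 2.36e-25). OsTrx19 was 4.40 ± 0.10 higher in mature leaf than mature root (adjusted p = 3.08e-30). The m-type thioredoxins OsTrx08 and OsTrx14 changed sides with age: OsTrx08 was higher in leaf in young plants and lower in mature ones, and OsTrx14 the reverse. For OsTrx14 the young difference came from the R parent (-1.91), with 0.08 in the B parent and 0.35 in the hybrid, and the arrays overlapped.

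The tau-class genes GSTU1 and GSTU6, whose class is known for conjugating herbicides and other reactive compounds, lay on the root side. GSTU1 ranged from 3.24 to 3.97 in mature leaves and from 9.33 through 10.54 to 11.21 in mature roots, at least 5.46 lower in leaf (limma, adjusted p = 2.61e-29), and at least 3.88 lower in young leaf (adjusted p = 7.96e-25). GSTU6 was at least 4.73 lower in young leaf than in young root (adjusted p = 5.6e-18). Averaging the probe sets of GSTU6, of which the other reached a mean of 5 in no group, gave a difference of -2.39 as fitted. The phi-class genes differed from each other: GSTF2 was lower in leaf at both ages, while GSTF1 ranged from 3.98 to 6.42 in mature leaves and from 2.62 to 3.63 in mature roots, near background. The genes named GSTZ3 and GSTZ5 were both higher in mature leaf than in mature root.

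Over both ages, 14 genes were higher in leaf each time, 12 were lower each time, and 8 passed the test in opposite directions: APX2, APX6, GRXC6, GRXC7, GRXS9, GRXS11, OsTrx08 and OsTrx14. These joint counts were not made over all probe sets, so whether they depart from the background is not known. GRXC7 had the widest such change. Its arrays lay from 5.72 to 7.46 in young leaves and from 9.74 to 11.69 in young roots, a fall of 4.05 ± 0.17 (limma, adjusted p = 1.54e-21). In mature plants they lay from 10.71 to 11.87 in leaves and from 9.46 to 11.28 in roots, which overlap. The B parent read 11.34, 10.91 and 11.08 in mature leaves and 9.53, 10.41 and 9.46 in mature roots, without overlap. In the hybrid and in the R parent mature leaf and root arrays overlapped. Of these 8 genes only OsTrx14 and GRXC7 are given by genotype here.

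**Figure D2:**
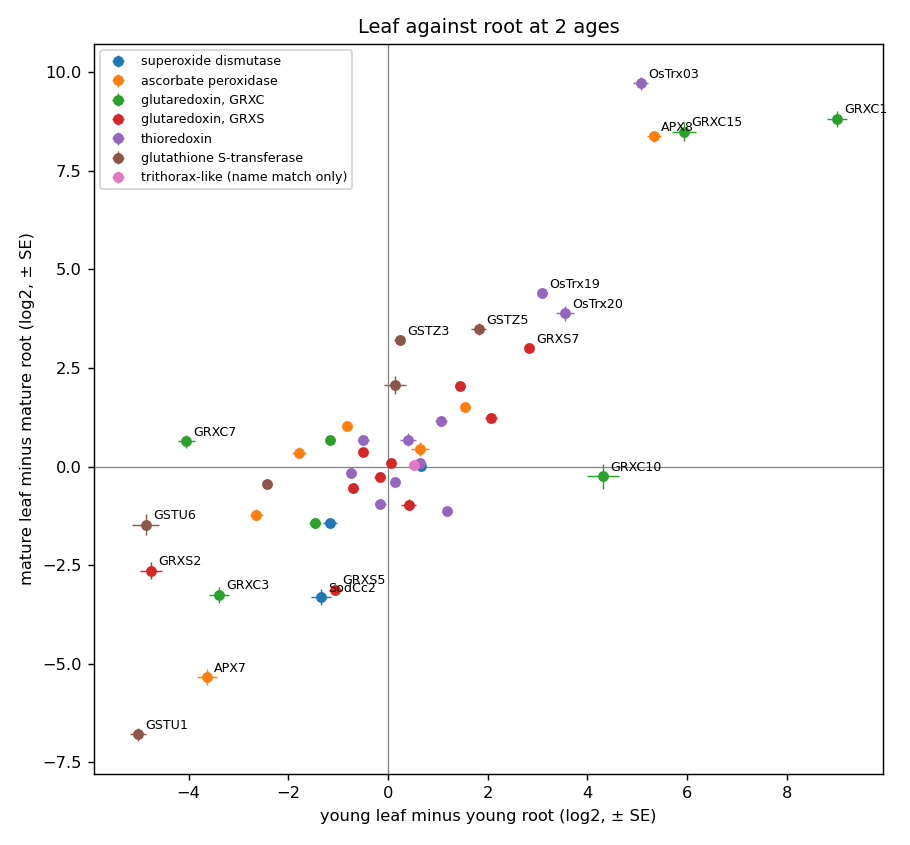
Each point is 1 of the 45 genes, with the log2 difference of young leaf minus young root on the x axis and of mature leaf minus mature root on the y axis (as fitted, ± SE, 9 arrays a tissue, coloured by family). GRXC1, GRXC15, APX8 and OsTrx03 lie far to the upper right and GSTU1 and APX7 to the lower left, while GRXC7 lies left of zero on x (-4.05) and above it on y.

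Age changed these genes too, and both cytosolic superoxide dismutases fell from the young to the mature leaf. Between young and mature leaf 20 genes rose and 13 fell, 44.4% and 28.9%, against 33.4% and 32.3% of all probe sets. After quantile normalization 14 rose and 17 fell. GRXC7 rose by 4.75 ± 0.17 (limma, adjusted p = 1.07e-22), or 26.8-fold, with no overlap between the ages. OsTrx03 rose by 2.25 ± 0.16 (adjusted p = 9.07e-15), GRXS2 by at least 2.23 (adjusted p = 4.22e-11) and the transferase GSTZ5 by 1.86 ± 0.14 (adjusted p = 1.29e-13). SodCc2 fell by 3.95 ± 0.20 (adjusted p = 1.9e-18), or 15.4-fold, from 9.85 to 11.27 in young leaves to 5.78 to 7.33 in mature ones. SodCc1 fell by 1.33 ± 0.13 (adjusted p = 6.4e-11), APX7 by 3.03 ± 0.20 (adjusted p = 3.05e-15) and OsTrx08 by 2.14 ± 0.09 (adjusted p = 5.16e-21). GRXC10 fell by at least 4.47 (adjusted p = 3.72e-18). In both superoxide dismutases every mature leaf array lay below every young leaf array.

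The flag leaf, the last leaf below the panicle, differed from the mature leaf in 36 genes. Of the 45, 16 were higher and 20 lower, 35.6% and 44.4%, against 33.2% and 31% of all probe sets. OsTrx25, whose name comes from a tomato thioredoxin that binds the Cf-9 resistance protein, ranged from 10.27 through 10.70 to 10.99 in flag leaves and from 6.72 through 7.14 to 7.79 in mature leaves. It rose by 3.46 ± 0.12 (limma, adjusted p = 3.31e-22), 11.0-fold. The mean level was 7.34 in mature and 10.74 in flag leaves of the B parent, 7.02 and 10.60 in those of the hybrid, and 7.13 and 10.53 in those of the R parent. The peroxidases APX7 and APX5 rose by 2.56 ± 0.20 and by at least 1.98 (adjusted p = 2.25e-13 and 3.1e-15), and the glutaredoxin GRXS12 by 1.82 ± 0.12 (adjusted p = 9.02e-16). In contrast, cytosolic APX1 fell by 2.34 ± 0.14 (adjusted p = 8.41e-17), the h-type thioredoxin OsTrx10 by 2.00 ± 0.08 (adjusted p = 1.29e-20) and GRXC7 by 2.42 ± 0.17 (adjusted p = 9.12e-15). Of the superoxide dismutases, SodCc2 was higher in the flag leaf, by 0.72 in the B parent and 2.30 in the hybrid but -0.06 in the R parent, and SodCc1 was not called. All 5 GRXC calls and all 5 transferase calls were downward.

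Between young and mature root 9 genes rose and 24 fell, 20% and 53.3%, against 31.2% and 45.9% of all probe sets. Of the 7 ascorbate peroxidases 6 fell and 0 rose. APX8 fell by 3.22 ± 0.14 (limma, adjusted p = 2.31e-20) and OsTrx03 by at least 2.17 (adjusted p = 8.69e-16). These falls stood beside one in all 8 leaf markers tested, whose median difference was -8.01, and the part of those transcripts in the result was not tested. GSTU6 fell by 3.29 ± 0.27 (adjusted p = 3.44e-13), from 9.09 to 11.78 in young roots to 5.93 to 8.47 in mature ones, and by a difference of -1.63 as the mean of its probe sets. GSTZ3 fell by 2.06 ± 0.11 (adjusted p = 3.8e-18). GSTU1, by contrast, rose by 1.58 ± 0.16 (adjusted p = 9.35e-11), GRXS9 by 1.59 ± 0.15 (adjusted p = 9.26e-12) and GRXS5 by 1.49 ± 0.13 (adjusted p = 3.88e-12).

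The next question is how the parents differ. In the young leaf the R parent was low in the thioredoxins OsTrx03 and OsTrx14 and in the glutaredoxins GRXS5 and GRXS7, and high in OsTrx20, OsTrx25 and OsTrx08. Of the 45 genes 7 were higher and 15 lower in the R parent, 15.6% and 33.3%, against 17.3% and 29% of all probe sets, so that the share called was near the background. Quantile normalization gave 12 higher and 11 lower, and leaving out R parent arrays 1 and 2 gave 11 and 11, where 1 array stands for the R parent and the spread comes from the other groups. Among the thioredoxins 3 were higher and 6 lower. The m-type OsTrx08 read 12.36, 12.45 and 12.47 in the R parent and 11.83, 11.83 and 11.68 in the B parent.

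OsTrx03 read 13.55, 13.39 and 14.03 in the B parent, 14.19, 13.64 and 13.39 in the hybrid, and 10.42, 10.58 and 10.86 in the R parent. The R parent arrays all lay below the other 6, a difference of -3.04 ± 0.27 (limma, adjusted p = 1.98e-11) or 8.20-fold. OsTrx14, an m-type thioredoxin, read 10.63, 11.01 and 11.01 in the B parent and 8.23, 8.77 and 8.94 in the R parent. It fell by 2.24 ± 0.19 in the R parent (adjusted p = 5.32e-12), with the hybrid at 11.34, 11.45 and 11.22. GRXS5 read 10.44, 11.33 and 11.60 in the B parent and 8.72, 8.54 and 8.53 in the R parent, a difference of -2.52 ± 0.23 (adjusted p = 4.24e-11). The parents did not overlap in any of these 3 genes. GRXS7 and the h-type thioredoxin OsTrx01 were lower in the R parent by differences of -1.36 ± 0.14 and -1.30 ± 0.18 (adjusted p = 7.35e-10 and 3.12e-07). Higher in the R parent were the h-type thioredoxin OsTrx20 by 1.86 ± 0.33, GRXS4 by 1.25 ± 0.19 and SodCc2 by 1.23 ± 0.35 (adjusted p = 1.34e-05, 1.64e-06 and 0.00374). GRXS4 was 0.49 higher as the mean of its probe sets and 0.70 with the spike-in signal as a covariate. With that covariate the difference in OsTrx20 was 0.76 and its call was lost (adjusted p = 0.0739). That signal was higher in the R parent than in the other 2 genotypes.

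**Figure D3:**
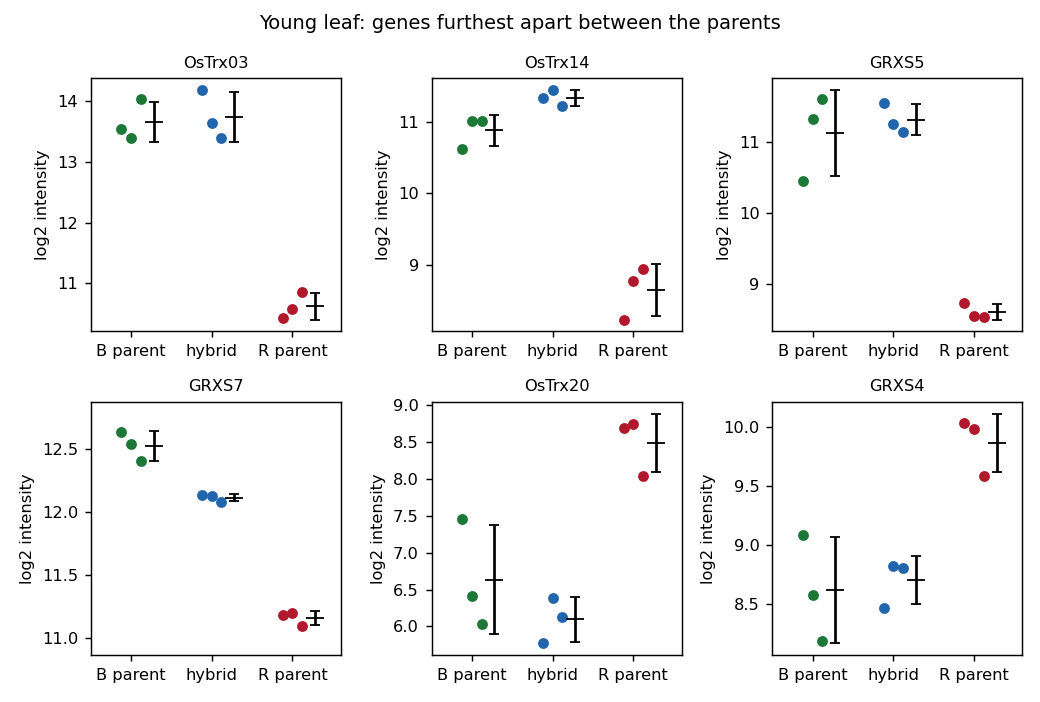
Young leaf values of 6 genes are plotted as log2 intensity for the 3 arrays of each genotype (points), with the mean ± SD beside them. OsTrx03, OsTrx14, GRXS5 and GRXS7 are lowest in the R parent, where OsTrx03 lies between 10.42 and 10.86.

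In young roots the parents differed in fewer of these genes. The R parent was higher in 11 and lower in 2, 24.4% and 4.44%, against 16.8% and 11.7% of all probe sets, and quantile normalization gave 9 and 4. Without B parent array 1, 8 genes were called in all, and without R parent array 1, which stood apart, 9. GRXC7 read 9.75, 9.99 and 9.74 in the B parent and 11.19, 11.69 and 11.65 in the R parent, with no overlap and a difference of 1.68 ± 0.29 (limma, adjusted p = 2.37e-05). GSTU6 read 9.31, 9.90 and 10.20 in the B parent and 11.24, 11.78 and 11.66 in the R parent, a rise of 1.76 ± 0.47 (adjusted p = 0.00372), which was 0.90 as the mean of its probe sets. GSTU1 fell by 1.31 ± 0.28 in the R parent (adjusted p = 0.000406). GSTZ5 was 0.78 ± 0.25 higher (adjusted p = 0.016), but 0.30 without B parent array 1 (adjusted p = 0.377) and 0.74 without R parent array 2 (adjusted p = 0.0513). APX8 was higher by 1.35 ± 0.25 (adjusted p = 6.48e-05), where PORA and RBCS1 were the only leaf markers under 5 in both parents. SodCc1 was lower by a difference of -0.61 ± 0.23 (adjusted p = 0.0418), a call lost when any 1 of B parent arrays 1 and 2 and R parent arrays 1, 2 and 3 was left out (-0.64 to -0.56). The same R parent roots were high in 6 of the 7 defence and phytoalexin markers tested. The mean level of that list was 8.10 to 8.49 in the R parent, 3.56 to 5.20 in the B parent and 4.50 to 4.76 in the hybrid, with CYP76M7 under 5 in all 3 genotypes. Its part in the result was not tested.

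In mature leaves few of these genes passed the test between the parents. The R parent was higher in 3 and lower in 2, 6.67% and 4.44%, against 9.43% and 5.74% of all probe sets, and quantile normalization gave 2 and 3. Leaving out B parent array 2 or array 3 left 3 calls in all. OsTrx20 read 8.11, 8.15 and 8.17 in the B parent and 5.88, 5.92 and 6.99 in the R parent, a fall of 1.88 ± 0.33 (limma, adjusted p = 4.83e-05). With the spike-in covariate the difference was -0.86 and was not called (adjusted p = 0.0745). In the young leaf the same gene had been higher in the R parent. OsTrx08 was 0.86 ± 0.15 higher in the R parent (adjusted p = 6.86e-05).

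In mature roots the R parent was higher in much of the list, and in 5 of the 6 transferases. It was higher in 19 genes and lower in 8, 42.2% and 17.8%, against 27.7% and 31.3% of all probe sets, and quantile normalization gave 15 and 9. The median difference was 0.26 over these genes and -0.06 over all probe sets. SodCc2 read 9.13, 8.46 and 9.62 in the B parent and 11.38, 10.35 and 10.94 in the R parent, with no overlap. It rose by 1.82 ± 0.35 (limma, adjusted p = 3.44e-05), or 3.52-fold. Cytosolic APX1 read 12.31, 12.17 and 12.99 in the B parent and 13.66, 13.95 and 13.84 in the R parent, a difference of 1.32 ± 0.24 (adjusted p = 1.24e-05). OsTrx15, a thioredoxin of the CXXS type with an altered active site, rose by 1.32 ± 0.14 (adjusted p = 1.36e-09), OsTrx03 by at least 1.13 (adjusted p = 7.65e-07) and GRXS2 by 1.31 ± 0.38 (adjusted p = 0.00344). GSTZ3 read 6.02, 6.36 and 6.14 in the B parent and 7.37, 7.27 and 7.39 in the R parent, again with no overlap. OsTrx26, a thioredoxin of the tetratricopeptide (TDX) type, read 10.32, 10.32 and 10.60 in the B parent and 7.61, 9.77 and 8.38 in the R parent, a fall of 1.82 ± 0.27 (adjusted p = 6.05e-07).

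The 3' index was 1.51 to 1.63 in the R parent mature roots and 2.38 to 2.78 in those of the B parent. With it as a covariate, 13 genes were called (9 higher and 4 lower). The calls of APX1 (0.89, adjusted p = 0.0739) and GRXS2 (1.05, adjusted p = 0.21) were lost, and those of SodCc2, OsTrx03, OsTrx15 and OsTrx26 were kept. Other genes of the pathway moved in these roots. All 5 genes listed as sources of reactive oxygen were higher in the R parent, led by the NADPH oxidase OsrbohB (3.02 ± 0.40, limma adjusted p = 6.88e-08) and the glycolate oxidase GLO3 (2.62 ± 0.36, adjusted p = 1.53e-07). The alternative oxidase AOX1, a mitochondrial bypass of the respiratory chain, rose by 2.43 ± 0.61. Of the 6 genes for recycling and making glutathione and ascorbate, 2 rose and 2 fell, and of the 13 other thioredoxins, peroxiredoxins and reductases, 5 rose and 5 fell. The values of these pathway genes come from the main fit without a covariate, and the part of the 3' index in them was not tested. Beside them 5 of the 7 defence markers were higher in the R parent, with mean levels of 6.07 to 6.38 against 4.58 to 5.16, and their part was not tested.

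In flag leaves the R parent was higher in 2 genes and lower in 7, 4.44% and 15.6%, against 6.54% and 6.16% of all probe sets. The other higher gene beside OsTrx08 was GSTF1, with means under 5 in both parents. APX5, an ascorbate peroxidase, read 7.58, 8.01 and 7.51 in the B parent and 5.18, 5.96 and 6.43 in the R parent, a fall of 1.85 ± 0.30 (limma, adjusted p = 1.91e-05). GRXS2 was at least 1.06 lower (adjusted p = 4.61e-06) and OsTrx08 0.98 ± 0.15 higher (adjusted p = 7.47e-06). GRXC1 was lower by a difference of -1.41 ± 0.35 (adjusted p = 0.00431), which was -1.04 without B parent array 2 (adjusted p = 0.0747). SodCc2 and SodCc1 were lower by differences of -1.17 ± 0.35 and -0.71 ± 0.23 (adjusted p = 0.019 and 0.0333). Without R parent array 2 these were -0.65 and -0.38 and neither was called (adjusted p = 0.297 and 0.4). Without B parent array 3 they were -0.90 and -0.50 (adjusted p = 0.148 and 0.238), and SodCc1 was also lost without B parent array 1 (-0.75, adjusted p = 0.0548).

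The last question is where the hybrid left the mean of its parents. In the flag leaf it did so upward, in superoxide dismutases, ascorbate peroxidases and glutaredoxins. Of the 45 genes 9 were higher than the mid-parent and 0 lower, 20% and 0%, against 7.69% and 2.44% of all probe sets. The median difference was 0.19 over these genes and 0.02 over all probe sets. Of the 3 superoxide dismutases 2 rose, of the 7 ascorbate peroxidases 3 (APX1, APX2 and APX7), of the 7 GRXC genes 2 (GRXC1 and GRXC7), of the 10 GRXS genes GRXS2, of the 11 thioredoxins OsTrx10, and of the 6 transferases 0 (3 had an unadjusted p under 0.05).

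SodCc1 read 10.86, 10.59 and 11.35 in the B parent, 11.86, 12.41 and 11.82 in the hybrid, and 10.54, 9.56 and 10.56 in the R parent. All hybrid arrays lay above all parent arrays, and the rise over the mid-parent was 1.45 ± 0.20 (limma, adjusted p = 3.11e-06), or 2.73-fold. SodCc2 read 7.35, 7.38 and 8.19 in the B parent, 7.88, 9.29 and 8.16 in the hybrid, and 7.004, 5.43 and 6.97 in the R parent, so that hybrid and B parent overlapped. It rose by 1.39 ± 0.30 over the mid-parent (adjusted p = 0.00193), and without hybrid array 2 by 0.97, which was not called (adjusted p = 0.0528). GRXC1 read 11.40, 12.21 and 10.80 in the B parent, 12.28, 12.75 and 13.07 in the hybrid, and 10.08, 9.82 and 10.26 in the R parent. Its rise was 1.94 ± 0.30 (adjusted p = 3e-05), or 3.83-fold, with every hybrid array above every parent array. APX1 read 9.19, 9.04 and 9.25 in the B parent, 10.56, 10.12 and 9.58 in the hybrid, and 9.05, 8.72 and 9.35 in the R parent, again without overlap. It rose by 0.99 ± 0.20 (adjusted p = 0.0012), and without hybrid array 1 by 0.75 (adjusted p = 0.0506). GRXS2 rose by at least 0.34 (adjusted p = 0.031), and without hybrid array 2 its difference was 0.65 as fitted (adjusted p = 0.3). Without hybrid array 1, B parent array 1 or R parent array 1 it was 1.22, 0.75 or 1.02 as fitted (adjusted p = 0.0618, 0.0957 and 0.0571).

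The hybrid lay above both parents, by a test against each, in 5 of these genes and below both in 0, against 2.17% and 0.559% of all probe sets. GRXC1 exceeded the nearer parent by 1.23, SodCc1 by 1.09, APX1 by 0.92, OsTrx10 by 0.45 and APX2 by 0.43 (limma, larger adjusted p = 0.0175, 0.0012, 0.0076, 0.033 and 0.0095). Leaving out hybrid array 1 ended the call in APX1 (0.69, adjusted p = 0.112), OsTrx10 (0.47, adjusted p = 0.0879) and APX2 (0.40, adjusted p = 0.059). Leaving out B parent array 3 ended it in GRXC1 (0.89, adjusted p = 0.138) and OsTrx10 (0.37, adjusted p = 0.144). The call of GRXC1 was also lost without hybrid array 3 (1.05) or B parent array 1 (1.19), and that of OsTrx10 without hybrid array 2 (0.33) or B parent array 2 (0.49). With the mean of its probe sets APX2 was no longer called above both parents (0.30, adjusted p = 0.126). Without hybrid array 1 or B parent array 3, and after quantile normalization, 3 genes lay above both parents. The 3' index was 2.36 to 2.54 in the hybrid flag leaves, 2.499 to 2.696 in those of the R parent and 2.79 to 3.06 in those of the B parent. With it as a covariate APX1 was no longer called above both parents (0.75, adjusted p = 0.0807), nor GRXS2 above the mid-parent (adjusted p = 0.0835). A fit of the flag leaf arrays alone, with fewer degrees of freedom, kept 3 of the 9 calls against the mid-parent and 1 of the 5 above both parents. Beside these genes the alternative oxidase AOX1 was at least 1.43 above the mid-parent (adjusted p = 0.011) and MDAR2, which recycles ascorbate, 0.59 ± 0.16 above it (adjusted p = 0.016). Genes of the pathway lists were named only where they passed the test. The other genes of those lists are not given for the flag leaf, so these values do not describe the pathway.

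**Figure D4:**
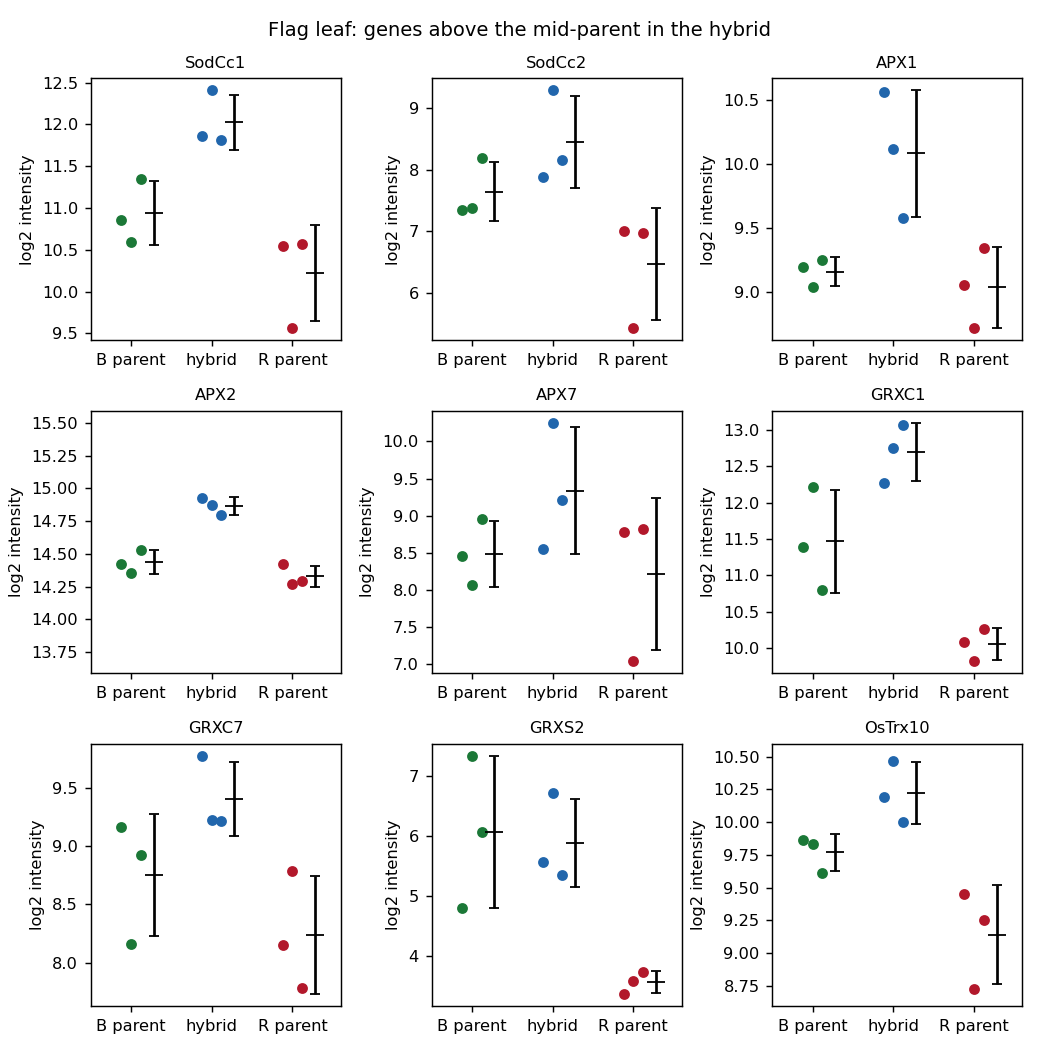
Flag leaf values of the 9 genes above the mid-parent are plotted as log2 intensity for the 3 arrays of each genotype (points), with the mean ± SD beside them. The hybrid arrays of SodCc1 (11.82 to 12.41), GRXC1 (12.28 to 13.07) and APX1 (9.58 to 10.56) lie above all 6 parent arrays.

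In young roots 4 of the 6 transferases were lower than the mid-parent in the hybrid, and GSTF1 and GSTZ3 were not called. Against the mid-parent 5 of the 45 genes were higher and 7 lower, 11.1% and 15.6%, against 11.4% and 8.91% of all probe sets. GSTZ5 read 8.83, 10.18 and 10.37 in the B parent, 8.12, 7.57 and 7.69 in the hybrid, and 10.44, 10.64 and 10.63 in the R parent. Every hybrid array lay below every parent array, and the fall below the mid-parent was 2.39 ± 0.22 (limma, adjusted p = 1.41e-10), or 5.23-fold. It was called under every setting tried, with differences from -2.63 to -2.24, and lay 2.00 below the nearer parent. GSTU1 read 9.62, 9.86 and 10.11 in the B parent, 8.67, 8.23 and 7.74 in the hybrid, and 9.19, 8.34 and 8.14 in the R parent, so that hybrid and R parent overlapped. It fell by 0.997 ± 0.24 (adjusted p = 0.00259). GSTU6 was lower than the mid-parent by a difference of -1.22 ± 0.40 (adjusted p = 0.0288). That call was lost without hybrid array 1 (-1.15, adjusted p = 0.102), hybrid array 3 (-1.03, adjusted p = 0.139), B parent array 3 (-1.12, adjusted p = 0.0623) or R parent array 2 (-1.16, adjusted p = 0.0528), and the mean of its probe sets gave -0.61. The phi-class gene GSTF2 read 14.86, 15.05 and 15.03 in the B parent, 14.60, 14.54 and 14.35 in the hybrid, and 14.79, 14.93 and 14.86 in the R parent, with every hybrid array below the parents and a difference of -0.42 ± 0.13 (adjusted p = 0.0219).

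Of the 20 genes higher in young leaf than in young root, 4 were above the mid-parent in the hybrid young roots (APX8, OsTrx03, OsTrx19 and GRXS12) and 1 below it (GSTZ5). Of the 19 lower in young leaf, 0 were above it and 6 below. The same split was not counted over all probe sets, so whether it is particular to these genes is not known. APX8 read 7.95, 6.55 and 6.85 in the B parent, 8.97, 9.67 and 9.43 in the hybrid, and 8.61, 8.35 and 8.42 in the R parent. It rose by 1.57 ± 0.22 over the mid-parent (limma, adjusted p = 9.24e-07), with no overlap between hybrid and parents. OsTrx03 read 7.44, 7.66 and 7.54 in the B parent, 8.07, 8.85 and 8.13 in the hybrid, and 7.04, 7.03 and 6.71 in the R parent, a rise of 1.11 ± 0.24 (adjusted p = 0.000542). OsTrx19 rose by 0.58 ± 0.15 (adjusted p = 0.00365). All 8 leaf markers tested were higher than the mid-parent in the same roots, with a median difference of 2.25. The mean level of the marker list was 10.69 to 11.34 in the hybrid, 8.59 to 10.09 in the B parent and 8.26 to 9.18 in the R parent, RBCS1 was under 5 in all 3, and PORA in both parents. Its part in these rises was not tested. GRXC1, a gene of leaves with no group mean above 5 in young roots, read 3.07, 2.81 and 4.98 in the hybrid.

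Above both parents lay APX8 and OsTrx03, and below both GSTZ5 and OsTrx10, against 4.71% and 2.43% of all probe sets. Without hybrid array 2, 2 genes in all lay outside both. The call of APX8 was lost without hybrid array 2 (0.74, adjusted p = 0.0701). That of OsTrx03 was lost without hybrid array 2 (0.56, adjusted p = 0.208), B parent array 1 (0.75, adjusted p = 0.0887) or B parent array 3 (0.80, adjusted p = 0.0611). OsTrx10, an h-type thioredoxin, lay 0.45 below the nearer parent, and its call was lost without hybrid array 2 (-0.44), hybrid array 3 (-0.42) or R parent array 1 (-0.38).

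**Figure D5:**
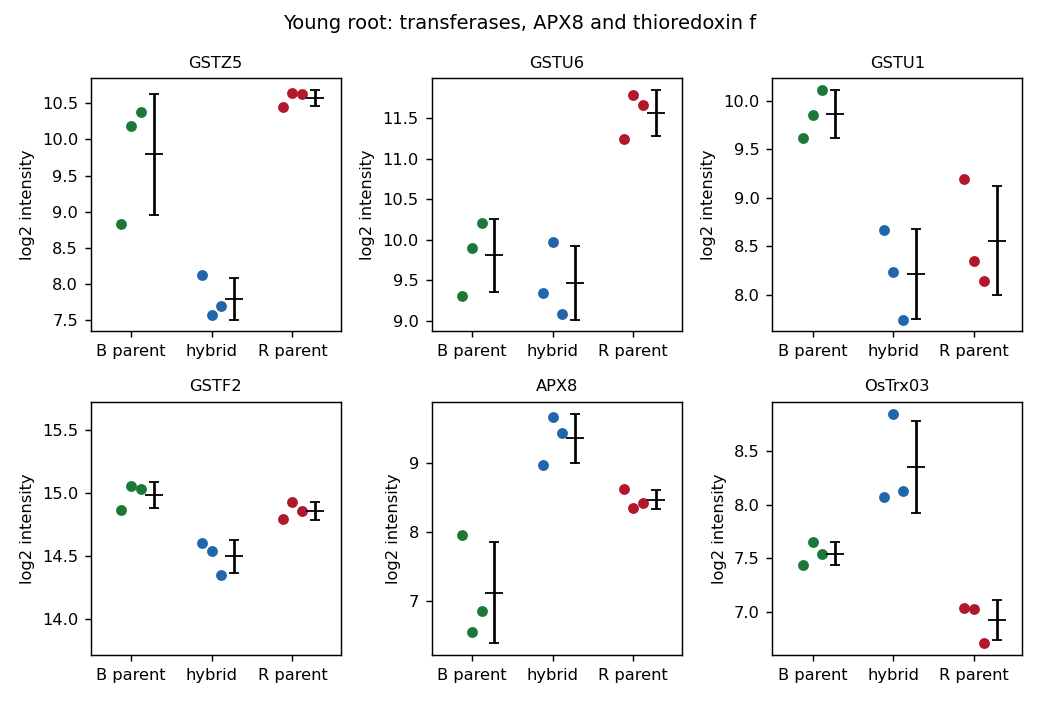
Young root values of 6 genes are plotted as log2 intensity for the 3 arrays of each genotype (points), with the mean ± SD beside them. GSTZ5 lies between 7.57 and 8.12 in the hybrid, below all parent arrays, and APX8 between 8.97 and 9.67, above them.

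In the young leaf the hybrid was higher than the mid-parent in 14 genes and lower in 7, 31.1% and 15.6%, against 34.4% and 12.5% of all probe sets. Those shares were near the background, where the median of all probe sets was itself 0.17 above the mid-parent. Quantile normalization, which took that median to 0.02, gave 9 higher and 7 lower. Without hybrid array 2, 13 genes were called in all. APX7 read 8.57, 7.94 and 9.31 in the B parent, 10.16, 10.48 and 10.08 in the hybrid, and 8.30, 8.65 and 8.86 in the R parent. It rose by 1.63 ± 0.30 (limma, adjusted p = 3.72e-05), all hybrid arrays above all parent arrays, and with the spike-in covariate by 1.23, which was not called (adjusted p = 0.0719). OsTrx03, OsTrx14 and GRXS5 were above the mid-parent by 1.60 ± 0.24, 1.57 ± 0.16 and 1.45 ± 0.20 (adjusted p = 1.11e-06, 2.22e-09 and 4.46e-07). With the mid-parent taken on the linear scale, OsTrx03 and GRXS5 were 0.92 and 0.96 above it. In each of the 3 genes the hybrid lay near the B parent and the R parent was low, as given above. OsTrx20 was below the mid-parent by a difference of -1.47 ± 0.28 (adjusted p = 5.95e-05), which the spike-in covariate reduced to -0.02. The hybrid lay above both parents in 5 genes (APX7, APX1, GRXC8, OsTrx15 and GRXS6) and below both in GRXS2, against 15.3% and 4.53% of all probe sets, and quantile normalization gave 3 and 2. Without hybrid array 2, 3 genes lay outside both. OsTrx15 exceeded the nearer parent by 0.52 (larger adjusted p = 0.0042), a call kept under every alternative run. With the spike-in covariate the calls of APX7 (1.07, adjusted p = 0.254) and APX1 (0.34, adjusted p = 0.629) were lost. The call of APX1 was also lost with array weights (0.69, adjusted p = 0.057). The calls of GRXC8 (0.54), GRXS6 (0.39) and GRXS2 (-0.98) were lost when single arrays were left out, 4 different arrays for GRXC8 and 7 for each of the others.

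Mature leaves of the hybrid stayed closest to the mid-parent by count. Of these genes 0 were higher and 2 lower (OsTrx20 and SDG723), 0% and 4.44%, against 1.46% and 3.42% of all probe sets, and 6 had an unadjusted p under 0.05. OsTrx20 read 5.89, 5.10 and 6.02 in the hybrid, against 8.11 to 8.17 in the B parent and 5.88 to 6.99 in the R parent. It fell by 1.53 ± 0.28 below the mid-parent (limma, adjusted p = 0.000575), or 2.90-fold, and overlapped the R parent. The mean of its probe sets gave -0.80 and the spike-in covariate -0.98, both called. The call of SDG723 was lost without hybrid array 1 or 2, B parent array 1 or 2, or R parent array 3, which left 1 call in all. No gene lay outside both parents in limma's tests (0 above and 0 below, against 0.149% and 0.837% of all probe sets).

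In mature roots 8 genes were higher and 3 lower in the hybrid, 17.8% and 6.67%, against 13.6% and 9.42% of all probe sets. Without hybrid array 1, 7 genes were called in all. Of the 7 GRXC genes 4 were higher. The call of GRXC7 among them was lost without hybrid array 1 (0.65, adjusted p = 0.138) or 2 (0.72, adjusted p = 0.0931), B parent array 1 or 3, or R parent array 2. The same call was lost with no level filter, the spike-in covariate, a linear mid-parent or the stages alone. GRXC3, a gene of roots, read 6.07, 5.57 and 6.01 in the B parent, 7.70, 5.89 and 8.14 in the hybrid, and 4.46, 5.99 and 4.54 in the R parent. The hybrid was at least 1.80 above the mid-parent (limma, adjusted p = 2.9e-05), with hybrid array 2 within the range of the parents. GRXC1 read 4.84, 5.74 and 5.22 in the hybrid and from 3.27 to 4.54 in the parents, at least 0.27 higher (adjusted p = 0.000149). GRXS7 was 0.54 ± 0.12 higher (adjusted p = 0.00147). OsTrx01 was 0.62 ± 0.16 higher (adjusted p = 0.00377), which was 0.46 without hybrid array 3 (adjusted p = 0.0611). GSTU6 read 6.28, 7.48 and 7.02 in the B parent, 5.93, 6.10 and 5.98 in the hybrid, and 8.01, 7.59 and 8.47 in the R parent, with every hybrid array below the parents. It fell by 1.47 ± 0.40 (adjusted p = 0.00733), and with the 3' index as a covariate by 1.24, which was not called (adjusted p = 0.08), and the mean of its probe sets gave -0.78. GRXC3, GRXC1 and GRXS7 lay above both parents and 0 genes below both, against 3.39% and 1.63% of all probe sets. Quantile normalization gave 3 and 1. The call of GRXS7 was lost without R parent array 3 (0.38, adjusted p = 0.0634). With the 3' index as a covariate 1 gene lay outside both parents.

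Over the 5 comparisons with the mid-parent, GSTU6 and APX6 were below it in both root ages, and OsTrx20 in both the young and the mature leaf. The calls of APX6 (-0.58 and -0.68) were lost when single arrays were left out, in mature root without hybrid array 1 (-0.54) or array 2 (-0.43). GSTU6 was above it in the young leaf, by at least 0.77 (limma, adjusted p = 0.0492), a call that several alternatives ended. These comparisons use separate arrays at each stage but 1 estimate of the spread.

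For 10 of the 46 genes the array has more than 1 probe set, and the levels above come from the one with the highest mean. In the 6 of them with another tested probe set, agreement between probe sets varied. The sign was the same in 27 of 32 values for APX2, 9 of 12 for OsTrx18 and 7 of 12 for GRXS11. It was the same in 8 of 14 for GSTZ3, 12 of 22 for GRXS10 and 4 of 9 for GRXS4. Probe sets were called in opposite directions in 3 of 32 values for APX2, 3 of 9 for GRXS4, 3 of 22 for GRXS10, 3 of 12 for GRXS11, 1 of 12 for OsTrx18 and 0 of 14 for GSTZ3. A probe set of the _s_at or _x_at type, which can also bind other transcripts, represents 7 of the 46 genes, sodA, GRXC3, GRXS2, GRXS10, OsTrx18, GSTU1 and GSTZ3. In the RefSeq annotation of the assembly ASM3414082v1, APX5 and APX6 are neighbours on the chromosome. GRXC10 likewise lies next to GRXC11, and GRXC15 next to GRXC14, neither of which has a paired probe set.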

How the data were processed

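Affymetrix Rice Genome Arrays of 45 samples were used, 3 in each of 15 groups of tissue, age and genotype. The deposited values are linear intensity values per probe set, which the authors made with GCRMA (background correction, quantile normalization and summary of probes) per the submitters' processing notes, where no version is given. Here each value was set to at least 1 and log2 was taken. Control probe sets (187 of 57381) were left out, and 24130 probe sets with a mean of 5 or more in some group were tested with limma 3.58.1 in R 4.3.3. The model held 1 mean per group over all 45 arrays (30 residual degrees of freedom) with empirical Bayes moderation, and p-values were adjusted by Benjamini-Hochberg within each comparison, at 0.05. A gene with several probe sets was represented by the one with the highest mean.

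Genes were named through the platform annotation and the RefSeq table of the assembly ASM3414082v1, which was used for names and neighbours alone. The members and the marker and pathway lists were chosen with earlier results of these data known. Named with a test are up to 5 members in each direction per comparison among those called, by size of difference, and up to 3 per difference of differences. The differences of OsTrx10 and GSTF2 in the young root were added after their values were seen. "Hybrid outside both parents" means called against each parent in the same direction. The labels say biological replicate without naming plants, so p-values measure the spread between these samples. Same-numbered arrays of different genotypes within a stage had mean residual correlations of -0.159 to 0.140, so they were not treated as pairs. Leaf and root arrays of the same genotype and age were not compared in this way, so a pairing between organs was not tested.

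In simulated data for the young root comparison of the parents, 100 of the 24130 probe sets were changed 2-fold and 100 others 4-fold. The groups were otherwise alike, with normal noise. There limma recovered 50 of 100 at 2-fold and 89 of 100 at 4-fold, with 13 false calls. The real comparison called many more probe sets, 4058 higher and 2834 lower, so these rates need not hold for it. Alternatives were quantile normalization of the log2 values, no level filter, array weights, a replicate block, the spike-in signal or the 3' index as a covariate, the mean of a gene's probe sets, a fit of the compared stages alone, a linear mid-parent and leaving out each array. Leaving out young leaf R parent arrays 1 and 2 together was added after seeing the data. The figures were drawn with matplotlib 3.10.9.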

Additional observations from a re-analysis of the deposited data

Results flagged for a closer look

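For 12 values a difference between genotypes was itself different between root and leaf of the same age, by limma's test of the difference of differences (root minus leaf, log2). Groups of 3 arrays were too small to test single arrays as outliers.

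For the R parent minus the B parent, 17 of the 45 genes were shifted upward in young root against young leaf and 6 downward, 37.8% and 13.3%, against 27.5% and 13.6% of all probe sets, and quantile normalization gave 10 and 13. GRXS5 differed by 2.49 (adjusted p = 2.23e-07), from -2.52 in leaf to -0.03 in root. OsTrx03 differed by 2.42 (adjusted p = 5.29e-06), from -3.04 to -0.62. GSTF1 differed by 2.96 (adjusted p = 7.1e-05), but on group means under 5. In mature plants 18 were shifted upward and 8 downward, 40% and 17.8%, against 21.5% and 27.5% of all probe sets. GRXS2 differed by 2.26 (adjusted p = 0.00073), from -0.95 in leaf to 1.31 in root. SodCc2 differed by 2.21 (adjusted p = 0.000379), from -0.39 to 1.82. GSTU6 differed by 1.96 (adjusted p = 0.0141), and without mature leaf B parent array 1 or mature root B parent array 1 by 1.54 or 1.63, which were not called (adjusted p = 0.0609 and 0.0525). With the 3' index as a covariate, which separates the parents' mature roots, it differed by 1.49 and was not called (adjusted p = 0.171).

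In the hybrid against the mid-parent, 5 genes were shifted upward and 13 downward in young root against young leaf, 11.1% and 28.9%, against 12.8% and 28.2% of all probe sets, which is near the background, and quantile normalization gave 8 and 11. APX7 differed by -2.37 (adjusted p = 4.84e-05), from 1.63 in leaf to -0.74 in root. GSTZ5 differed by -2.24 (adjusted p = 6.92e-07), from -0.14 to -2.39. OsTrx20 differed by 2.20 (adjusted p = 5.06e-05), on root means under 5. In mature plants 11 were shifted upward and 0 downward, 24.4% and 0%, against 11.8% and 6.85% of all probe sets, and without hybrid array 3 of the mature leaf or of the mature root 7 were called in all. GRXC3, OsTrx20 and GRXC1 differed by 1.82, 1.46 and 1.42 (adjusted p = 0.00269, 0.00928 and 0.0194), each using group means under 5. The call of OsTrx20 was lost without mature leaf hybrid array 2 (1.18, adjusted p = 0.0557), and that of GRXC1 without mature root hybrid array 2 (1.18, adjusted p = 0.0762). With the 3' index as a covariate both were lost (1.07 and 1.25, adjusted p = 0.0855 and 0.0808), and with the spike-in covariate OsTrx20 (0.27, adjusted p = 0.731) and GRXC3 (1.56, adjusted p = 0.0737).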

How the results depend on the processing

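Of 154 values named with a test, 94 kept their call and direction under every alternative run. Over 3098 combinations of value and alternative, 2874 kept the call and 223 lost it. The 1 reversal was GRXS4 against the mid-parent in young leaf, 0.18 with the spike-in covariate. A fit of the compared stages alone, which has fewer residual degrees of freedom and its own estimate of the spread, ended 26 calls. The spike-in covariate ended 22, the 3' index 16, no level filter 12, quantile normalization 8, array weights 6, the mean of probe sets 5 and the replicate block 1 (GSTU6 against the mid-parent in young leaf, 0.96, adjusted p = 0.0532). Same-numbered arrays within a stage did not deviate together. With the block 20, 10 and 8 genes were called in place of 21, 11 and 9 for the hybrid in young leaf and mature root and the parents in flag leaf. The following counts moved by over 1.5 times, and the cause was not tested. The parents' differences in mature leaf went from 5 to 9 with array weights and 11 in the stages alone, those in mature root from 27 to 13 with the 3' index, and those in flag leaf from 9 to 3 in the stage alone. Against the mid-parent, young leaf went from 21 to 10 with the spike-in covariate and young root from 12 to 19 with array weights. Mature leaf went from 2 to 1 with quantile normalization or the spike-in covariate and to 8 with array weights. Mature root went from 11 to 6 with the spike-in covariate, 7 with the 3' index and 6 in the stages alone. Flag leaf went from 9 to 14 with array weights and 3 in the stage alone. The shift between mature root and leaf went from 11 to 1 with the spike-in covariate and 2 with the 3' index. Genes outside both parents went in young leaf from 6 to 3 with array weights and 2 with the spike-in covariate, in young root from 4 to 12 with array weights, and in mature leaf from 0 to 1 with array weights, the mean of probe sets or the stages alone. In mature root they went from 3 to 5 with array weights and 1 with the 3' index or the stages alone, and in flag leaf from 5 to 3 with quantile normalization and 1 in the stage alone. Leaving out single arrays gave, for the parents, 20 to 24 in young leaf, 8 to 12 in young root, 3 to 5 in mature leaf, 21 to 26 in mature root and 6 to 9 in flag leaf. Against the mid-parent it gave 13 to 20, 8 to 12, 1 to 2, 7 to 12 and 7 to 10 in the same order, and for the shift between mature root and leaf 7 to 11. Genes outside both parents numbered 3 to 5 in young leaf, 2 to 4 in young root and mature root, 0 in mature leaf and 3 to 5 in flag leaf. Signal limits GRXS3, never above background, and the genes given as bounds.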
